A study of Homo sapiens with 8 samples.

Results

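The entries described here are 6 names from miRNA annotation whose sequences overlap or resemble other abundant cellular RNAs: hsa-miR-7641, hsa-miR-3687 and hsa-miR-6087, which resemble ribosomal RNA, hsa-miR-1303, which resembles an Alu repeat, and hsa-miR-1246 and hsa-miR-1248, which resemble a small nuclear and a small nucleolar RNA. They were taken by exact name and are 6 of the 2575 entries in the count files. The libraries hold small RNA of HCT116 cells, an established line from a human colorectal carcinoma, grown attached at passages 16 to 19. The ETBF group is 4 libraries from cells kept for 6 hours with enterotoxigenic Bacteroides fragilis, a gut anaerobe known for its fragilysin toxin, at 500 bacteria per cell. The control group is 4 libraries titled untreated, from cells given bacterial medium lacking the bacterium. The labels do not say whether replicates were separate cultures, so the spread between them may be technical in part.

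Ribosomes are built from several RNAs, most of them cut from 1 long precursor transcribed from repeated genes, with 5S ribosomal RNA made from separate genes. Small nuclear RNAs such as U2 are parts of the spliceosome, and small nucleolar RNAs of the H/ACA class guide pseudouridylation of other RNAs. A small RNA library also takes up short pieces of these abundant RNAs, and a piece whose sequence matches an annotated miRNA is counted under that miRNA's name. Counts under such names are therefore often read as a sign of RNA breakdown, and they need not report a miRNA that silences messenger RNAs.

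The sequences show how closely 3 of the entries match other RNAs. RefSeq (GRCh38.p14) gave a mature sequence for 3 of the 6, which are shown because their overlap with another RNA defines the group. They are written 5′ to 3′ with the seed, bases 2 to 8, in capitals, and no seed is shared among them.
hsa-miR-1246: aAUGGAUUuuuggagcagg
hsa-miR-1248: aCCUUCUUguauaagcacugugcuaaa
hsa-miR-1303: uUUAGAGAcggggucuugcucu
The miR-1246 sequence lies at chr2:176601024-176601042 on the minus strand, in no other annotated gene. All 19 of its bases also stand in RNU2-1, a U2 small nuclear RNA gene, where they are bases 94 to 112 of the 191-base GENCODE release 29 transcript, and in 19 small nuclear RNA genes in all. The hairpin and the U2 stretch are printed to show that the shared run (capitals) ends at different flanking bases, and the U2 line is in DNA letters.
MIR1246: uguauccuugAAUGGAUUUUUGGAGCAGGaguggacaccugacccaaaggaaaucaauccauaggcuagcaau
RNU2-1: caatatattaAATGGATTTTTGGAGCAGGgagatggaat

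The miR-1248 sequence lies at chr3:186786675-186786701 on the plus strand, inside the translation factor gene EIF4A2 and in an exon of some of its transcripts. It is also the first 27 bases of SNORA81, an H/ACA small nucleolar RNA of 178 bases, and 103 of the 106 hairpin bases belong to that RNA, so reads of both cannot be told apart by sequence. The hairpin is shown with the mature sequence in capitals.
MIR1248: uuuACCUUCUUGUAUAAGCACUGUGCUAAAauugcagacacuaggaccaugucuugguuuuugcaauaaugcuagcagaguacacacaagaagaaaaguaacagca
The miR-1303 sequence lies at chr5:154685827-154685848 on the plus strand, outside other annotated genes, and its whole length was found in no transcript other than its own hairpin. Runs of 16 of its bases, on either strand, were found in transcripts of 51 other genes, which gave it rank 3 of 418 entries examined, and miR-1246 had rank 6 with 27 genes. The median over the tested entries was 1 gene. Of the 417 tested entries with a RefSeq sequence, 4 stood whole in a small RNA gene (0.959%), miR-1248 among them. For miR-7641, GENCODE lists a hairpin on chromosome 11 and another on chromosome 14, where it lies within RNA5SP387, a 5S ribosomal RNA pseudogene in an intron of FLVCR2. For miR-3687 it lists 2 hairpins on chromosome 21, and the first starts at base 2857 of the ribosomal precursor gene RNA45SN2, ahead of the 18S RNA that starts at base 3644, in the spacer that is removed during processing. The miR-6087 hairpin is on chromosome X in no annotated gene.

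Library totals ran from 2591655 to 4706156 counts with ETBF and from 5243400 to 6522542 in controls, so the groups did not overlap in depth. Levels below are counts per 1000000 counts (CPM) of the library, scaled with TMM factors, which correct for differences in composition between libraries, and with no correction for length. The 6 entries together took 0.0194% to 0.0628% of counts with ETBF and 0.00440% to 0.0167% in controls. The largest sum was 609 CPM in ETBF replicate 4, against 196 to 301 CPM in the other ETBF libraries. In controls the sum was highest in replicate 2, at 178 CPM, against 46.1 to 103 CPM in the rest. The mean sum was 333 ± 190 CPM in ETBF libraries and 99.4 ± 57.1 CPM in control libraries (SD, n = 4 each). The 2 groups of sums did not overlap. In whole-cell RNA a larger amount of such fragments and a smaller amount of the miRNAs they are counted against cannot be told apart.

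**Figure D1:**
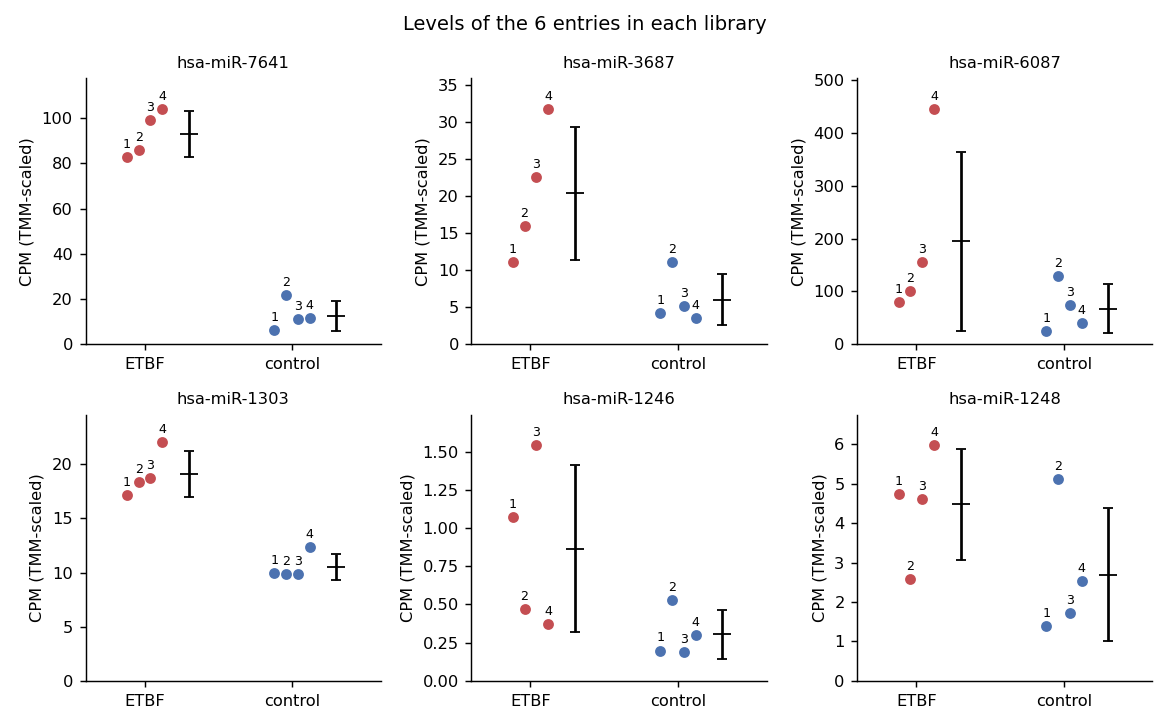
Level of each of the 6 entries in CPM (TMM-scaled, each y axis from 0), with 1 point per library labelled by replicate number, ETBF left and control right, and the mean with SD beside each group (n = 4). miR-7641 lay between 82.7 and 104 CPM in ETBF libraries and between 6.16 and 21.8 CPM in controls, while the groups of miR-6087, miR-1246 and miR-1248 overlapped.

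The members were chosen by class and name with their counts and fold changes in this same comparison in view, so their differences between ETBF and control are given as description, with fold changes and standard errors (SE) and no test. Of the 6, 5 passed the filter on low counts, and miR-1246 did not. In the fit across all 480 entries that passed (edgeR quasi-likelihood test, Benjamini-Hochberg adjustment, threshold 0.05), 4 of these 5 were called higher with ETBF and 0 lower. Over all tested entries 19.8% were called higher and 14.6% lower. Of the 5, 0 were lower also at an unadjusted p under 0.05. DESeq2 called 0 of the 5 lower and 3 higher, against 84 of all 480 entries higher. The ETBF libraries lay above the controls without overlap for 3 of the 5, against 18.1% of all tested entries. The median log2 fold change was 1.51 over the 5 and 0.01 over the 480. Nothing is drawn from these counts about the members, since the same contrast was known when they were chosen.

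MiR-7641, the entry resembling 5S ribosomal RNA, had 385, 366, 386 and 278 counts in ETBF replicates 1 to 4, and 31, 124, 58 and 77 counts in control replicates 1 to 4. Its level was 82.7, 86.0, 99.1 and 104 CPM in ETBF libraries and 6.16, 21.8, 11.0 and 11.5 CPM in control libraries. All 4 ETBF libraries lay close together and far above the controls, among which replicate 2 was the highest. The means were 93.0 ± 10.2 CPM in ETBF libraries and 12.6 ± 6.59 CPM in control libraries (SD, n = 4 each), a fitted 7.27-fold difference (log2 fold change 2.86, SE 0.23). The highest ETBF library was 1.26 times the lowest, whereas the highest control was 3.54 times the lowest. The counts of the 8 libraries shared no whole-number factor of 2 or more, so the pair of hairpins did not show as doubled counts.

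MiR-3687, from the precursor spacer, had 52, 68, 88 and 85 counts with ETBF and 21, 63, 27 and 24 counts in controls. In CPM this was 11.2, 16.0, 22.6 and 31.8 with ETBF and 4.17, 11.1, 5.13 and 3.58 in controls. The lowest ETBF library, replicate 1, and the highest control, replicate 2, were nearly level, at 11.17 and 11.09 CPM, so the groups were separated by less than the counting error of either value. The means were 20.4 ± 8.94 CPM in ETBF libraries and 5.99 ± 3.46 CPM in control libraries (SD, n = 4 each), with a log2 fold change of 1.72 (SE 0.34).

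MiR-6087, listed as resembling ribosomal RNA with no sequence compared here, was the most abundant of the 6 by count and the most uneven. It was counted 368, 431, 603 and 1189 times with ETBF and 122, 734, 394 and 273 times in the control libraries. Its level was 79.1, 101, 155 and 445 CPM in ETBF libraries and 24.3, 129, 74.9 and 40.7 CPM in control libraries. ETBF replicate 4 stood far above the other ETBF libraries, and control replicate 2 lay above ETBF replicates 1 and 2, so the groups overlapped. The means were 195 ± 170 CPM in ETBF libraries and 67.3 ± 46.4 CPM in control libraries (SD, n = 4 each), with a log2 fold change of 1.51 (SE 0.49). Without ETBF replicate 4 the log2 fold change was 0.73 (SE 0.37). It was 1.24 (SE 0.46) without control replicate 1, 1.33 (SE 0.53) without control replicate 4, and 1.51 (SE 0.73) with DESeq2. In these 4 alternatives miR-6087 was no longer called higher. With ETBF replicate 4 and control replicate 2 both left out, an alternative added after the data were seen, the log2 fold change was 1.25 (SE 0.30).

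**Figure D2:**
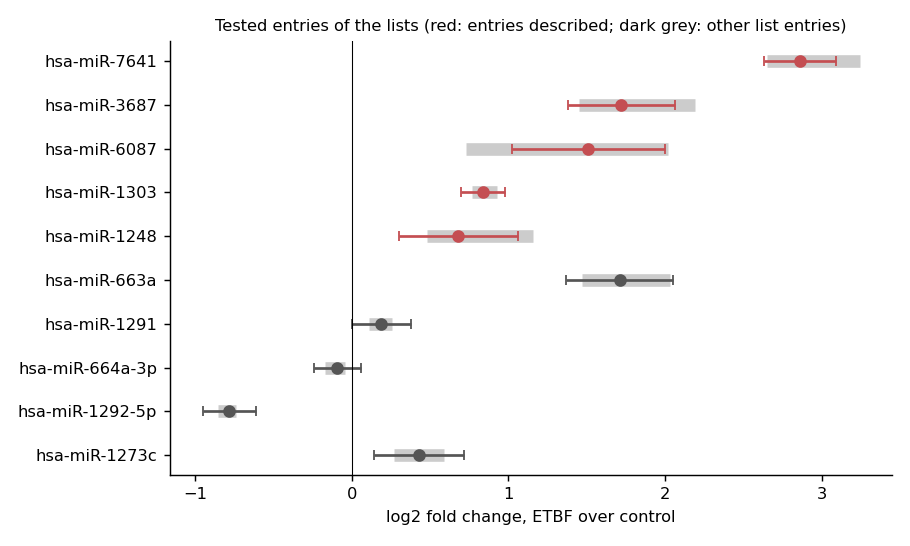
Fitted log2 fold change, ETBF over control, of the 10 tested entries of the lists (points) with SE (thin bars) and the range when each of the 8 libraries was left out in turn (wide grey bars). The range was widest for miR-6087, from 0.73 to 2.02, and miR-7641 stayed between 2.65 and 3.24.

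MiR-1303, the Alu-like entry, had 80, 78, 73 and 59 counts with ETBF and 50, 56, 52 and 83 counts in controls. The counts summed to 290 in the ETBF libraries and 241 in the control libraries, although the ETBF libraries were smaller, and the highest single count was in a control, so the raw counts of the groups overlapped. Scaled to CPM it stood at 17.2, 18.3, 18.7 and 22.1 with ETBF and 9.94, 9.86, 9.88 and 12.4 in controls. In CPM the groups did not overlap, and control replicate 4 stood apart from the other 3 controls. The means were 19.1 ± 2.10 CPM in ETBF libraries and 10.5 ± 1.24 CPM in control libraries (SD, n = 4 each), with a log2 fold change of 0.84 (SE 0.14). It stayed between 0.74 and 0.93 in all 18 alternatives, and after thinning every library to 2591655 counts it was 0.77 (SE 0.16).

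MiR-1248, which shares its sequence with SNORA81, had 22, 11, 18 and 16 counts with ETBF and 7, 29, 9 and 17 counts in controls. Its level was 4.73, 2.58, 4.62 and 5.99 CPM in ETBF libraries and 1.39, 5.11, 1.71 and 2.53 CPM in control libraries. Control replicate 2 lay above 3 of the 4 ETBF libraries, so the groups overlapped widely. The means were 4.48 ± 1.41 CPM in ETBF libraries and 2.69 ± 1.68 CPM in control libraries (SD, n = 4 each), with a log2 fold change of 0.68 (SE 0.38). Without control replicate 2 it was 1.16 (SE 0.35).

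MiR-1246, whose bases stand whole in U2 genes, had 5, 2, 6 and 1 counts with ETBF and 1, 3, 1 and 2 counts in controls, 14 and 7 in all. It was too rare for the fit. Its highest share, 6 counts in ETBF replicate 3, was 1.55 CPM of the raw library total with an exact 95% binomial interval of 0.568 to 3.37, and the lowest, 1 count in control replicate 1, was 0.190 CPM with an interval of 0.00480 to 1.06. The intervals reflect counting error alone, because without molecular identifiers several reads can stem from 1 molecule. A difference between the groups was not detectable at this depth: without any filter on counts the log2 fold change was 1.42 (SE 0.79), in a fit of 1496 entries.

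Library total and the level of the ribosomal-RNA-like entries moved in opposite directions among the ETBF libraries. The summed level of miR-7641, miR-3687 and miR-6087 was 581 CPM in ETBF replicate 4, which had the smallest total of all 8 libraries at 2591655 counts. It was 277 CPM in replicate 3, 203 CPM in replicate 2 and 173 CPM in replicate 1, whose totals were 3879570, 4036551 and 4706156. Within the ETBF group, the smaller the total, the higher was the sum. In controls the sums were 34.6, 162, 91.0 and 55.8 CPM for replicates 1 to 4, with totals of 5274167, 6040266, 5243400 and 6522542, and the highest sum was in the second deepest library. Depth differed between ETBF and control without overlap, so its part in the group difference was not tested. Thinning to equal depth resamples each library's own counts and keeps its shares apart from counting error, so it cannot separate depth from group. After thinning, miR-7641 was at a log2 fold change of 2.90 (SE 0.23) and miR-3687 at 1.83 (SE 0.34). The thinned level of miR-6087 was also higher with ETBF. The other 3 entries summed to 23.0, 21.4, 24.9 and 28.4 CPM in ETBF libraries and 11.5, 15.5, 11.8 and 15.2 CPM in control libraries.

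**Figure D3:**
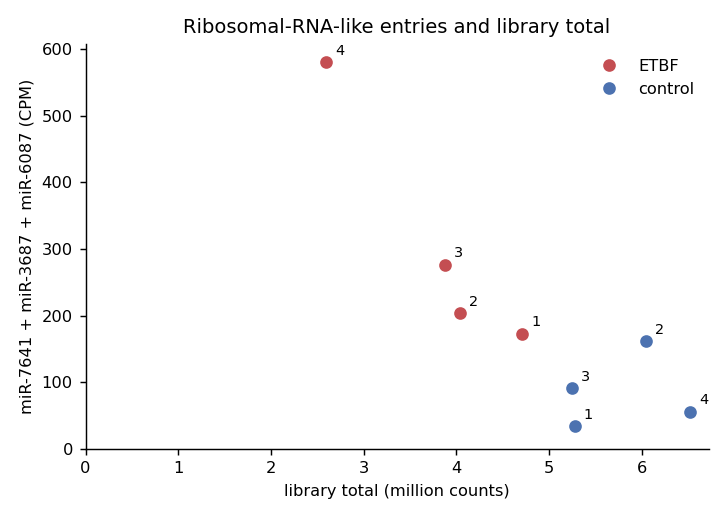
Summed CPM of miR-7641, miR-3687 and miR-6087 (y axis, from 0) against the library total in units of 1000000 counts (x axis, from 0), 1 point per library labelled by replicate number, ETBF and control in different colours. ETBF replicate 4 has the smallest total and the highest sum, 581 CPM, and the controls lie between 34.6 and 162 CPM.

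The 3 ribosomal-RNA-like entries did not keep 1 proportion to each other. The ratio of miR-6087 to miR-7641 counts was 0.956, 1.18, 1.56 and 4.28 with ETBF and 3.94, 5.92, 6.79 and 3.55 in controls. Only ETBF replicate 4 reached into the range of the controls. The ratio of miR-3687 to miR-7641 was 0.135, 0.186, 0.228 and 0.306 with ETBF and 0.677, 0.508, 0.466 and 0.312 in controls, without overlap. Replicate 4 of each group was nearly level in this ratio, and the control value rests on 24 and 77 counts. The ratio of miR-6087 to miR-3687, which leaves miR-7641 out, was 7.08, 6.34, 6.85 and 13.99 with ETBF and 5.81, 11.7, 14.6 and 11.4 in controls, and these ranges overlapped. Thus miR-7641 made up a larger part of the counts of the 6 entries with ETBF, 17.1% to 42.2%, than in controls, 10.7% to 16.2%. Here too replicate 4 of each group lay at the edge, with a narrow gap between them. These ratios do not depend on the library total or on the scaling.

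**Figure D4:**
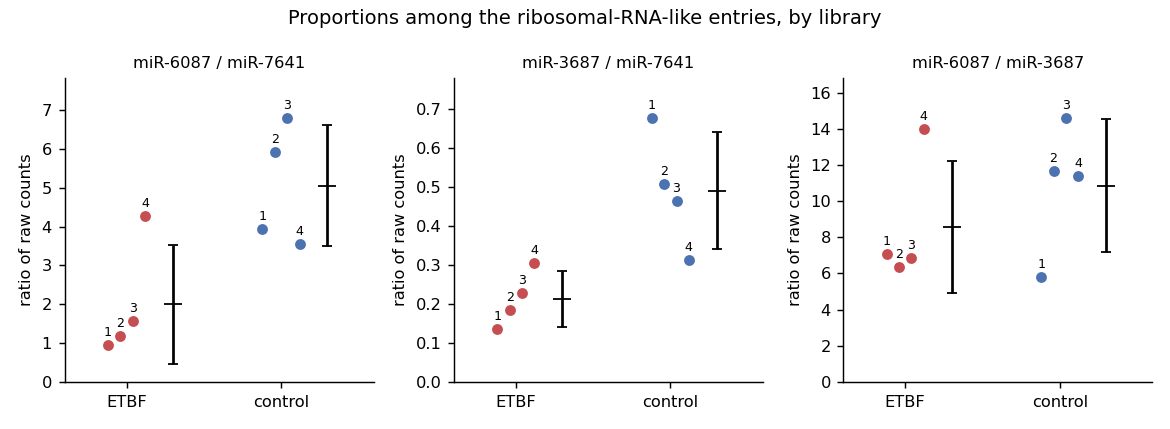
Ratios of raw counts between the 3 ribosomal-RNA-like entries in each library (y axes from 0), labelled by replicate number, ETBF left and control right, with mean and SD (n = 4). The ratios to miR-7641 were lower with ETBF, with means of 1.99 against 5.05 for miR-6087 and 0.214 against 0.491 for miR-3687, while miR-6087 to miR-3687 averaged 8.56 with ETBF and 10.9 in controls.

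Pooled over both groups, replicate libraries differed more in the 3 ribosomal-RNA-like entries than in nearly all others of like mean abundance. The SD of log2(CPM + 0.5) within groups was 1.07 for miR-6087, the largest of all 480 tested entries, and the 68 entries within 2-fold of its mean level had a median SD of 0.13 and a maximum of 0.27. For miR-7641 it was 0.52, above all 85 entries of similar level, whose median was 0.15. The spread of miR-7641 came from the controls, with deviations of -0.85 to 0.90, against -0.16 to 0.17 in ETBF libraries. Its controls lay below the mean level used to choose similar entries, where counting error is larger. The exact 95% binomial interval of its share was 3.99 to 8.34 CPM in control replicate 1. In control replicate 2 the interval was 17.1 to 24.5 CPM, without overlap. For miR-3687 the SD was 0.65, and 1 of 112 similar entries had as large an SD. MiR-1248 (0.59) was less unusual, with 16 of 145 similar entries as variable. MiR-1303 was no more variable than its neighbours, with an SD of 0.15 against a median of 0.22 over 111 entries.

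**Figure D5:**
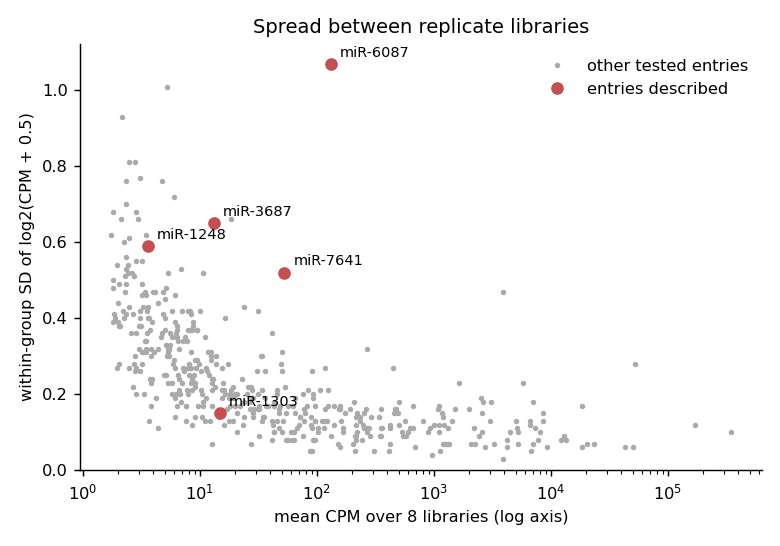
Within-group SD of log2(CPM + 0.5) over replicate libraries (y axis, from 0) against mean CPM (x axis, log scale) for the 480 tested entries, with 5 of the described entries in red. miR-6087 has the largest SD, 1.07, and miR-1303, at 0.15, lies among the other entries of its level.

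The libraries that were high in one of these entries were often high in another. Correlations of the deviations from the group means over the 8 libraries, which share library and depth, were 0.90 for miR-3687 with miR-6087, 0.77 for miR-7641 with miR-6087 and 0.72 for miR-7641 with miR-3687. MiR-1248, at few counts, had 0.84 with miR-7641. MiR-1303 had 0.11 to 0.34 with the other 4. Among the entries outside the group, the 2 most alike in this measure were miR-191-3p (0.95) and miR-98-5p (0.94) for miR-6087, miR-191-3p (0.94) and miR-210-5p (0.93) for miR-3687, and miR-100-5p (0.92) and miR-194-5p (0.90) for miR-7641. For miR-1303 they were miR-151b (0.99) and let-7e-3p (0.88), and for miR-1248 they were miR-7706 (0.95) and miR-1295a (0.92). These entries were picked as the highest among the 480 tested, members left out, over 8 libraries. Values this high can arise by such a choice alone, so no link is read from them.
Of those entries 1 passed the test between ETBF and control, in the downward direction. MiR-191-3p, the minor arm of its hairpin, was at 10.6 ± 1.06 CPM in ETBF libraries and 10.2 ± 1.06 CPM in control libraries (SD, n = 4 each; log2 fold change 0.04, SE 0.16, edgeR adjusted p = 0.867), and its sign turned in 3 alternatives. MiR-210-5p, from the hypoxia-induced miR-210 hairpin, fell to 5.25 ± 1.04 CPM with ETBF, against 9.35 ± 1.88 CPM in controls (SD, n = 4 each; log2 fold change -0.86, SE 0.21, edgeR adjusted p = 0.00479). The other 7 did not pass.

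Further entries known to overlap or resemble other RNAs were listed by class, 37 names besides the 6, of which 33 were in the files. Of these 14 had 0 counts in every library and 5 passed the filter. The lists were drawn up with earlier results of these data known, so the p-values below are no independent support for a class. MiR-663a, listed with the ribosomal-RNA-like entries, rose. Its sequence stood whole in no small RNA gene of the GENCODE release searched. That release listed no ribosomal precursor gene around the first miR-3687 hairpin, so a match to the precursor could have been missed. The mature sequence of miR-663a, printed because 90.9% of its bases are G or C, lies at chr20:26208243-26208264 on the minus strand, with the seed in capitals.
hsa-miR-663a: aGGCGGGGcgccgcgggaccgc
It had 16, 25, 35 and 19 counts in ETBF libraries and 9, 8, 7 and 19 counts in control libraries, or 3.44, 5.87, 8.99 and 7.11 CPM in ETBF libraries and 1.79, 1.41, 1.33 and 2.83 CPM in control libraries. All ETBF libraries lay above all controls. The log2 fold change was 1.71 (SE 0.34, edgeR adjusted p = 0.000924), between 1.47 and 2.03 in the 16 alternatives where it was tested, and it passed in each. Its deviations over the 8 libraries had a correlation of 0.73 with those of miR-1303, 0.17 with miR-3687, 0.12 with miR-6087, -0.01 with miR-1248 and 0.00 with miR-7641. The related names miR-663b, with 9, 8, 22 and 11 counts with ETBF and 6, 9, 7 and 5 in controls, and miR-3648, from the same ribosomal precursor as miR-3687, with 3, 3, 3 and 1 counts with ETBF and 1, 0, 0 and 2 in controls, were too rare to test.

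Among names listed with small nuclear and nucleolar RNAs, 0 of 4 were called higher with edgeR, 0 had an unadjusted p under 0.05 in that direction and 0 passed upward with DESeq2. MiR-1292-5p, which lies in NOP56, a gene for a nucleolar protein, and whose sequence stood whole in no small RNA gene, fell, with 5.80, 6.81, 6.68 and 5.61 CPM in ETBF libraries and 10.3, 11.1, 11.8 and 9.99 CPM in control libraries (log2 fold change -0.78, SE 0.17, edgeR adjusted p = 0.00168), and the groups did not overlap. MiR-664a-3p, within SNORA36B, was at 12.3 ± 1.80 CPM in ETBF libraries and 12.9 ± 1.29 CPM in control libraries (SD, n = 4 each; log2 fold change -0.09, SE 0.15, edgeR adjusted p = 0.682). MiR-1291, within SNORA2C, was at 6.60 ± 0.859 CPM in ETBF libraries and 5.78 ± 0.331 CPM in control libraries (SD, n = 4 each; 0.19, SE 0.19, edgeR adjusted p = 0.494). MiR-1273c, listed as Alu-like, was at 0.43 (SE 0.29, edgeR adjusted p = 0.284). Runs of 16 of its bases were found in 2 other genes, near the median of 1 gene over the tested entries. No listed name was compared with an Alu sequence itself. By class, 4 of 4 tested ribosomal-RNA-like names were called higher, 3 with DESeq2 (median log2 fold change 1.71). Of 4 tested small nuclear or nucleolar names 0 were higher and 1 lower (median 0.05). Of 2 tested Alu-like names 1 was higher (median 0.63). Over all tested entries 19.8% were called higher and 14.6% lower with edgeR. Of the ribosomal-RNA-like names 3 of the 4 are among the 6 entries chosen with this contrast known, as is the Alu-like name called higher, so nothing is read from these counts about the classes. Of 6 tRNA-like names 5 had 0 counts, and the files held counts for 2 mitochondrial-genome-like names, so neither class could be tested.

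Epithelial markers were present in all libraries, with miR-200c-3p at 10220 to 11900 CPM in ETBF libraries and 13080 to 14360 CPM in control libraries and miR-141-3p at 174 to 199 CPM in ETBF libraries and 160 to 217 CPM in control libraries. Of markers of other cells, the neuronal miR-124-3p had 0 counts, miR-133a-3p of muscle 12 and miR-122-5p of liver 87 over the 8 libraries, and the leukocyte miR-142-3p was at 10.7 to 15.7 CPM in ETBF libraries and 10.8 to 15.8 CPM in control libraries. The erythroid miR-451a was at 16.0 to 58.0 CPM in ETBF libraries and 5.17 to 9.84 CPM in control libraries, highest in ETBF replicate 4, as were 5 of the 6 entries. The endothelial miR-126-3p was at 1000 to 1229 CPM in ETBF libraries and 1419 to 1598 CPM in control libraries. The part of these markers in the differences above was not tested.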

How the data were processed

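For each of the 8 libraries the authors deposited 1 table of raw counts, with 1 number per mature miRNA name. Per the submitters' processing notes the authors used Trimmomatic, FastQC and featureCounts with GRCh37.p5. The sources used here do not give versions, the aligner, the annotation release, the strand setting or how reads with several matches were treated. Library totals were 2591655 to 6522542 counts, and the limit for an entry with no count, 3 counts, corresponds to 0.460 to 1.16 CPM. No pair of libraries within a group agreed within sampling noise, with chi-square values of 18.4 to 112 per degree of freedom.

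Libraries were grouped by title. Counts were fitted in R 4.3.3 with edgeR 4.0.16 (quasi-likelihood test, TMM, expression filter at a minimum count of 10, ETBF against control), with p-values two-sided and adjusted by Benjamini-Hochberg over all tested entries. The SE is approximate, from the log2 fold change over the root of its F statistic. The procedure was tested on simulated data in which every entry had the same dispersion between replicates. That test does not cover entries that vary as much between replicates as miR-6087. The members, the lists and the tests were chosen with earlier results of these data known. Named besides the members were the list entries past the threshold, the 2 most abundant other tested entries of each list, and the 2 entries per member with the highest correlation of deviations; miR-663b and miR-3648 were named after their values were seen. Alternatives were 3 other scalings, 2 other filters, DESeq2 1.42.0, the replicate number as a block, thinning, division by a common factor, and leaving out libraries. Sequences are from RefSeq (GRCh38.p14) and matches were sought in GENCODE release 29 transcripts (GRCh38); no coordinate of the authors' build was used.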

Additional observations from a re-analysis of the deposited data

Results flagged for a closer look

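In 5 of 42 groups of 4 libraries examined, 1 library lay far from the others by Dixon's criterion at the 95% level. The criterion sets the gap to the nearest value against the group's whole range. For independent groups chance gives about 1 in 20. These entries share the 8 libraries, and some were picked for deviations like a member's, so the count was not compared with that rate. All 5 were in controls. MiR-1303 was at 12.4 CPM in control replicate 4, against 9.86 to 9.94 CPM in the other controls, and let-7e-3p was at 10.7 CPM there, against 9.14 to 9.31 CPM. In control replicate 2, miR-1291 was at 5.28 CPM, against 5.89 to 5.96 CPM, miR-210-5p at 12.2 CPM, against 8.15 to 8.74 CPM, and miR-1295a at 4.23 CPM, against 1.99 to 2.28 CPM. MiR-6087 in ETBF replicate 4, at 445 CPM, did not reach the criterion.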

How the results depend on the processing

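The count of entries that differ, 165, stayed between 141 and 168 in 18 alternatives. Upper-quartile scaling gave 71 higher and 89 lower, against 95 and 70 with TMM. Of the 6 entries, 3 to 5 were called higher in the alternatives, against 4. MiR-6087 was not called higher in 4 of the 18 alternatives, DESeq2 among them. The members' log2 fold changes are given with no test, since the members were chosen with this contrast known: over the alternatives in which each was fitted, miR-7641 ran from 2.65 to 3.24, miR-3687 from 1.45 to 2.19, miR-1303 from 0.74 to 0.93, miR-6087 from 0.73 (without ETBF replicate 4) to 2.02, with 1.51 under DESeq2, and miR-1248 from 0.48 to 1.16 (without control replicate 2). With a library left out the count of differing entries was 143 to 163, and the mean sum of the 6 entries was 241 to 378 CPM with ETBF and 73.3 to 117 CPM in controls. Without miR-6087 that mean was 138 CPM with ETBF and 32.1 CPM in controls, since 1 entry was removed. Signs turned for miR-664a-3p after thinning (0.01), for miR-100-5p without control replicate 2 (0.07) and without that library and ETBF replicate 4 (0.04), and for miR-191-3p with upper-quartile scaling (-0.04), after thinning (-0.06) and without ETBF replicate 4 (-0.01); the cause was not tested. With a library left out miR-100-5p ran from -0.19 to 0.07 and miR-191-3p from -0.01 to 0.10. Deviations of same-numbered libraries had correlations of -0.06 to 0.06, which showed no pairing by number. A weak effect of a shared culture or day could go unseen in this measure, so pairing is not excluded. With the replicate block 159 entries differed, and miR-6087 was at 1.43. MiR-1246, at 1 to 6 counts per library, could be fitted only without a filter.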
